A study of Mus musculus with 12 samples.

Results

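The comparison described here set dim PNX-dnFGFR cells against dim SHAM cells, on 4 of the 12 arrays of the study. Fibroblasts were taken by flow sorting from dispase-digested mouse lungs, with GFP reporting Pdgfra, the gene of PDGF receptor alpha, in every group, and the dim gate is the one with the weaker GFP signal. The dim SHAM group had a sham operation. The dim PNX-dnFGFR group had a pneumonectomy that took out part of the lung, and carried dnFGFR, a dominant-negative form of an FGF receptor. The sides therefore differ in the operation and in the receptor, and this comparison alone cannot separate the 2. A further group, dim PNX, had the pneumonectomy without dnFGFR and is set beside them. Lungs were collected 5 days after surgery, the RNA of each sample, from 2000 sorted cells, went through 25 amplification cycles, and each group has 2 arrays, labelled as biological replicates. The same 3 groups exist in the bright gate. The sources used here give neither the promoter that drives dnFGFR nor the cells that express it, nor the age of the mice. They also do not say whether 1 replicate stands for 1 animal or a pool, so p-values measure the spread between these samples, which may be technical.

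After removal of part of a lung, the remaining lobes of an adult mouse grow and form new alveoli, and the fibroblasts of the alveolar wall take part by laying down collagen and elastin and by sending growth factors to the epithelium. FGF ligands signal through receptor tyrosine kinases to RAS and ERK, which switch on the feedback inhibitors of the Sprouty and Dusp families. A dominant-negative FGF receptor pairs with normal receptors, or takes up their ligand, and blocks that signal. Surgery by itself also evokes the acute phase response, in which cytokines act through STAT3 and NF-kappaB on genes of secreted proteins such as serpins and serum amyloid A.

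3 upstream sequences are shown because the results turn on their genes: Serpina3n passed the test in the comparison, and Per3 and Ciart are clock genes in which both dim PNX-dnFGFR arrays lay between dim SHAM and dim PNX. Each is the 250 bases before the transcription start, from RefSeq on GRCm38.p6, written 5′ to 3′ on the gene's strand. Capitals mark the E-box CACGTG, the letters to which CLOCK and BMAL1 bind, and the D-box TTATGNAA on either strand, the letters bound by the clock outputs DBP, TEF and HLF. Serpina3n lies at chr12:104406458-104406707 on the plus strand, Per3 at chr4:151044666-151044915 on the minus strand and Ciart at chr3:95882229-95882478 on the minus strand.
Serpina3n: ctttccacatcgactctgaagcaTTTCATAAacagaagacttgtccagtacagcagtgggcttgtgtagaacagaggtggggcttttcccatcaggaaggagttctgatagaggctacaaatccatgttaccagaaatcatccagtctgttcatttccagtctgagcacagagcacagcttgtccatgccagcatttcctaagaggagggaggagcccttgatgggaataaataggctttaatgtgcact
Per3: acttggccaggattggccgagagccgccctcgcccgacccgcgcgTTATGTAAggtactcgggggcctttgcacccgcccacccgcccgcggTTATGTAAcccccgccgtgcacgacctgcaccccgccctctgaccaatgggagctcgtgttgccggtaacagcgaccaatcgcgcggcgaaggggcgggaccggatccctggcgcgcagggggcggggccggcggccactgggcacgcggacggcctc
Ciart: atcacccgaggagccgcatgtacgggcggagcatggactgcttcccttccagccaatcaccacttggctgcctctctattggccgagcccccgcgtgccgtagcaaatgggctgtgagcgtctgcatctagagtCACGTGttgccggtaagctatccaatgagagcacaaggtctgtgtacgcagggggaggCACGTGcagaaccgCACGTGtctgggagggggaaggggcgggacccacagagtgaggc
Serpina3n held 1 D-box, 227 bases before the start, Per3 held 2, at 205 and 158 bases, and Ciart held 3 E-boxes, at 116, 58 and 44 bases. Of the 32851 upstream windows of this length in the table, 6.02% held an E-box and 3.07% a D-box. A STAT site (TTCNNNGAA, either strand, in 7.02% of windows) and a sterol element (TCACNCCAC, either strand, in 1.05%) were in none of the 3. A match is a run of letters and was not tested for binding.

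The signals are log2 values, in which 1 unit is a 2-fold difference, and 11073 of 17097 genes were tested, those above 5.101, the median of all signals, on at least 2 of the 12 arrays (the filter level below). Differences are of group means from limma, and its adjusted p-values (Benjamini-Hochberg) allow for all genes tested. The arrays had medians of 5.06 to 5.13. Arrays of the same dim group correlated at 0.968 to 0.972 (Pearson's r across genes, which are no independent replicates) and dim PNX-dnFGFR with dim SHAM arrays at 0.954 to 0.968. The label of interstitial lung fibroblast was read against markers. Summed over 8 fibroblast markers, the signal was 13.87 to 13.96 on the dim PNX-dnFGFR arrays and 13.63 to 13.74 on the dim SHAM arrays, and Col1a1, the main chain of type I collagen, was at 12.12 and 11.94 against 11.94 and 11.82. Pdgfra itself lay at 6.92 and 6.99 against 7.13 and 6.93, a difference of -0.07 (95% interval -0.45 to 0.30). In the bright gate its 1 probe set was lower, at 5.54 and 5.29 in bright PNX-dnFGFR and 5.11 and 5.25 in bright SHAM. That order is opposite to the GFP signal of the gates, so the probe set is no check of the gate. The reason was not tested. Transcripts of other lung cells were also read at high levels in both groups: Sftpc, the surfactant protein C gene of type II epithelium, lay at 12.02 and 11.79 against 12.43 and 12.13, and Lyz2, lysozyme of macrophages, at 10.86 and 10.78 against 11.11 and 10.58. In such bulk samples, fewer cells of a type and less RNA per cell cannot be told apart.

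Few genes separated the groups beyond the spread between arrays. limma called 2 of 11073 genes (0.0181%) at an adjusted p below 0.05, 1 higher and 1 lower, while 560 (5.06%) were higher and 494 (4.46%) lower at an unadjusted p below 0.05. The median difference over all genes was 0.00. 148 genes differed by more than 1 log2 between the group means, 68 higher and 80 lower in dim PNX-dnFGFR. Between the 2 replicates of a group, which vary more than means do, 286 genes differed that much in dim PNX-dnFGFR and 334 in dim SHAM. The median absolute difference was 0.17 between the group means, and 0.21 and 0.22 between the replicates.

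Serpina3n was the gene that rose. It encodes a secreted inhibitor of serine proteases of the antichymotrypsin type and is an acute phase gene. Its signal was 11.61 and 11.23 on the dim PNX-dnFGFR arrays and 7.92 and 8.06 on the dim SHAM arrays, so the groups lay far apart and the replicates close together. The rise was 3.43 log2 (± 0.21 SE, n = 2 arrays per group, 95% interval 2.96 to 3.90, 10.8-fold, adjusted p = 0.00036 by limma). The dim PNX arrays, without dnFGFR, stood at 11.11 and 11.52, which overlapped the dnFGFR pair. Against dim SHAM they were higher by 3.33 ± 0.21 (adjusted p = 0.00048), and the 2 pneumonectomy groups differed by 0.10 ± 0.21 (95% interval -0.37 to 0.57). The gene is read by 1 probe set, and members of its family in a cluster with related sequences could share its signal. It passed under every alternative run here.

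Mpzl2 was the gene that fell. It encodes an adhesion molecule of the immunoglobulin family found at epithelial junctions and in the thymus. Its signal was 2.63 and 2.50 on the dim PNX-dnFGFR arrays, at the low end of the scale, and 6.72 and 7.99 on the dim SHAM arrays. The fall was -4.78 log2 (± 0.39 SE, 95% interval -5.65 to -3.92, adjusted p = 0.0024). Its 3 probe sets gave -4.78 to -3.60. The dim PNX arrays were as low, at 2.67 and 2.69, with a difference from dim SHAM of -4.67 (adjusted p = 0.0029) and from dim PNX-dnFGFR of -0.11. Signals this low are hard to tell from background, so the values under the filter level of log2 5.101 were also set to it, and the fall was then -2.25 with an adjusted p of 0.098. With only the arrays of the 2 groups in the model its adjusted p was 0.072. The summed signal of the epithelial markers was 12.70 to 12.98 in dim PNX-dnFGFR, 12.60 to 13.70 in dim PNX and 12.95 to 13.59 in dim SHAM, and that of the mesothelial markers is given below. Their part in the fall was not tested.

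Of the genes with all 4 arrays above the filter level, no overlap between the groups and an unadjusted p below 0.01, those with the largest differences follow. None of them passed the adjusted threshold. Timp1, the inhibitor of matrix metalloproteinases, was at 9.49 and 8.84 on the dim PNX-dnFGFR arrays against 7.12 and 6.50 on the dim SHAM arrays, a difference of 2.35 (± 0.33, adjusted p = 0.14). Nnmt, which methylates nicotinamide, was at 8.73 and 8.42 against 6.20 and 6.71, a difference of 2.12 (± 0.38, adjusted p = 0.19). Nrcam, a neuronal cell adhesion molecule, was at 8.59 and 7.99 against 6.25 and 6.24, a difference of 2.04 (± 0.59, adjusted p = 0.37). In these 3 genes the dim PNX arrays lay between the others in mean: the differences were 1.36, 0.83 and 0.94 between dim PNX and dim SHAM and 0.99, 1.29 and 1.11 between dim PNX-dnFGFR and dim PNX. None of those 6 values passed. Mt1, a metal-binding metallothionein, was higher by 1.60, Iigp1, an interferon-inducible GTPase, by 1.52, Trmt61a, a tRNA methyltransferase, by 1.40 and Egr2, an immediate early transcription factor, by 1.31, with adjusted p-values of 0.28, 0.25, 0.19 and 0.38.

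On the lower side, Igfbp6, a binding protein that holds IGF2, was at 7.46 and 8.20 on the dim PNX-dnFGFR arrays and at 9.45 and 9.21 on the dim SHAM arrays. The difference was -1.50 (± 0.22, adjusted p = 0.15), and without dim PNX-dnFGFR replicate 2 it was -1.87 with an adjusted p of 0.02. Igfbp3, the main carrier of IGF1, was at 8.06 and 8.91 against 10.38 and 10.20, a difference of -1.81 (± 0.41, adjusted p = 0.27). The 2 dim PNX arrays of both genes were close to the dnFGFR arrays, with differences from dim SHAM of -1.38 and -1.75. Pglyrp1, a peptidoglycan recognition protein of neutrophils, was at 6.42 and 6.47 against 8.03 and 8.61, a difference of -1.87 (± 0.32, adjusted p = 0.19). Of the others, Nfam1 (-1.21) and Cd52 (-1.10) are leukocyte surface genes, Coro6 (-1.14) is a coronin that binds actin and Rnase4 (-1.09) is a secreted ribonuclease. Their adjusted p-values were 0.34, 0.37, 0.25 and 0.19. The other probe set of Nfam1 gave -0.40. The rule that chose these 7 genes required that the 2 groups do not overlap, so the lack of overlap adds nothing. Over all genes tested, 18.9% were higher and 19.0% lower without overlap.

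**Figure D1:**
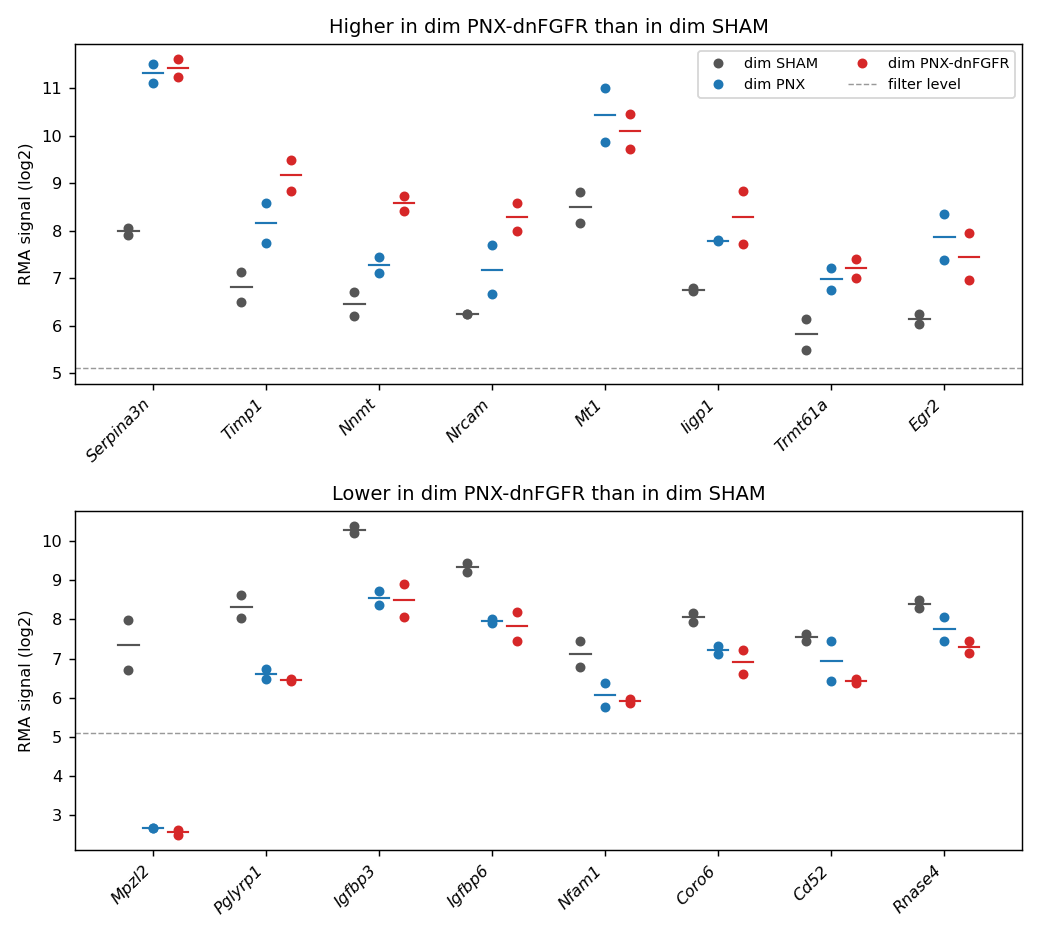
Log2 RMA signal of the 8 named genes with a higher and the 8 with a lower mean in dim PNX-dnFGFR than in dim SHAM, on each of the 6 dim arrays, with short lines at the group means (n = 2) and a dashed line at the filter level of 5.101. Serpina3n and Mpzl2 stand apart from dim SHAM on both pneumonectomy groups, while Timp1, Nnmt and Nrcam step up from dim SHAM to dim PNX to dim PNX-dnFGFR in mean.

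Some large differences lay outside the rule that chose the genes above, and these 4 genes were chosen after their values were seen. Saa3, a serum amyloid A protein of the acute phase, was at 11.14 and 9.55 on the dim PNX-dnFGFR arrays and at 4.43 and 4.22 on the dim SHAM arrays, a difference of 6.02 (± 0.97, adjusted p = 0.19). The dim PNX arrays were at 11.39 and 8.34, so the replicates of both pneumonectomy groups spread over more than 1 log2 and all 4 were above both dim SHAM arrays. Pianp, a ligand of a paired inhibitory receptor, was at 7.68 and 7.13 against 2.77 and 2.61 (4.71 ± 1.05, adjusted p = 0.27), and the dim PNX arrays were at 2.97 and 7.23. Its dim SHAM signals were below the filter level, the difference was 2.30 with low values held at that level, and its other probe set gave 1.35. With only the arrays of the 2 groups in the model Pianp passed (adjusted p = 0.017), and with either dim PNX array left out it also did (adjusted p = 0.0051). Ch25h, which makes 25-hydroxycholesterol, was at 6.62 and 6.61 against 5.01 and 4.52, higher by 1.85 (adjusted p = 0.25). Galnt15, a glycosyltransferase of the Golgi, differed by -2.63, at 3.96 and 5.98 against 6.89 and 8.31 (adjusted p = 0.27), and its other probe set gave -1.26.

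Markers of other cells also gave large differences, none past the adjusted threshold with all 12 arrays in the model. Upk1b, a uroplakin of mesothelium, was at 3.77 and 5.05 on the dim PNX-dnFGFR arrays, at 10.66 and 10.67 on the dim SHAM arrays and at 10.22 and 4.52 on the dim PNX arrays, a difference of -6.25 (± 1.71, adjusted p = 0.34; 0.027 with only the arrays of the 2 groups in the model). The summed signal of the 11 mesothelial markers was 8.68 to 8.70 in dim PNX-dnFGFR, 8.64 to 10.97 in dim PNX and 11.00 to 11.06 in dim SHAM. Of the 11 markers, 7 were under the filter level on all 4 arrays of the comparison, Msln and Wt1 among them. Of the 8 genes tested, Upk1b was the 1 that was lower at an unadjusted p below 0.05, and 0 were higher. Over all genes tested, 4.46% were lower and 5.06% higher. The median difference of the mesothelial list was -0.11. Hba-a1, alpha globin of red cells, was at 5.95 and 5.91 against 11.54 and 9.53 (-4.60 ± 1.91, adjusted p = 0.48), and Hbb-b2, beta globin, was lower too, at 4.46 and 3.89 against 10.26 and 8.63, with its 3 probe sets at -5.27 to -0.58. On the dim PNX arrays Hba-a1 was at 6.30 and 12.02, so that 1 of the 2 was as high as dim SHAM. S100a8 and S100a9, the calprotectin genes of neutrophils, differed by -1.82 and -1.72 (adjusted p = 0.56 and 0.61), and Csf3r, the receptor of G-CSF, by -0.89. The summed neutrophil and mast cell signal was 8.58 to 9.43 in dim PNX-dnFGFR, 7.35 to 8.52 in dim PNX and 9.68 to 11.08 in dim SHAM. Pglyrp1, Nfam1 and Cd52 also had lower values in dim PNX-dnFGFR than in dim SHAM, and the part of these cells in their values was not tested.

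The marker lists were also read by their medians. For their counts, the shares over all genes tested were 5.06% higher and 4.46% lower at an unadjusted p below 0.05. Over 15 epithelial markers the median difference was -0.16, with 0 higher and 1 lower at an unadjusted p below 0.05, and over 14 endothelial markers it was -0.09, with 1 higher and 0 lower. Over 22 markers of macrophages and dendritic cells the median was -0.29, with 0 higher and 1 lower. The summed signal of the 23 measured was 12.67 to 12.83 against 12 to 13.38 in dim SHAM. Chil3, a chitinase-like protein of alveolar macrophages, was at 10.50 and 10.62 against 9.93 and 8.78. The lymphocyte list had a median of -0.21 over 8 genes with 1 higher and 1 lower, the neutrophil and mast cell list -0.89 over 7 with 1 higher and 0 lower, the pericyte list 0.36 over 3 with 1 higher, the erythrocyte and platelet list -0.25 over 4 with 1 lower, and the glial and neuronal list -0.21 over 2 with 0. The neutrophil gene that was higher was Mpo, myeloperoxidase, at 7.84 on 1 dim PNX-dnFGFR array and 3.88 on the other, against 3.72 and 3.47. The fibroblast list had a median of 0.14 over 8 genes, with Col1a2 (0.68) and Mfap4 (0.59) higher at that level. Col1a2 was read by 1 probe set with modest signals, at 6.85 and 6.47 against 5.74 and 6.22.

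**Figure D2:**
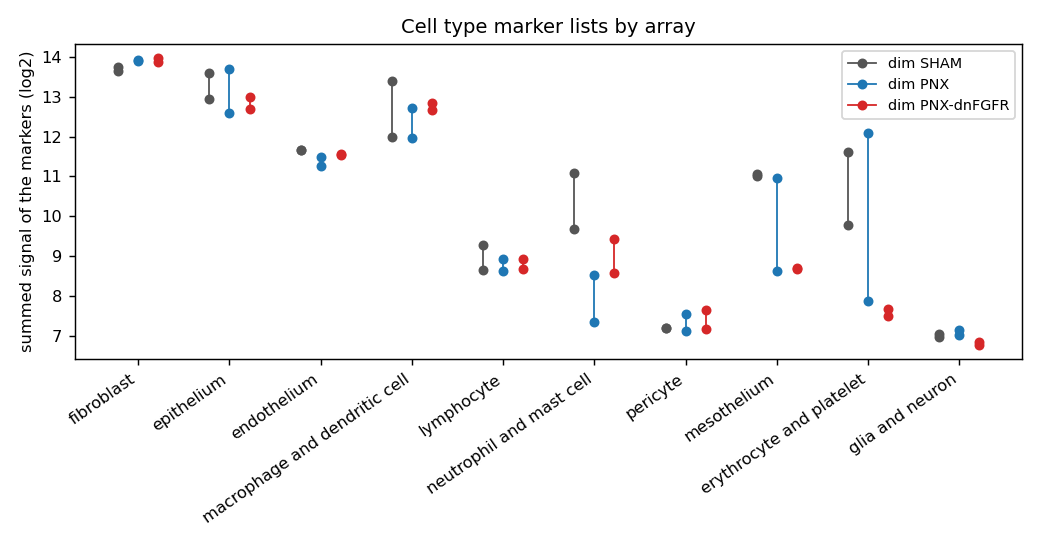
Summed signal of the markers of 10 cell types (log2 of the sum of linear signals) on the 2 arrays of each dim group, joined by a line. The fibroblast sums lie within 13.63 to 13.96 on the 6 arrays, while the mesothelial and red cell sums of both dim PNX-dnFGFR arrays lie below those of dim SHAM.

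No gene of the FGF pathway passed the adjusted threshold between dim PNX-dnFGFR and dim SHAM, where 2 of 11073 genes (0.0181%) passed in all. Of 7 receptor genes 5 were tested, and 0 were higher or lower at an unadjusted p below 0.05. Fgfr1, the receptor typical of mesenchyme, was at 10.42 and 10.62 on the dim PNX-dnFGFR arrays and at 10.65 and 10.52 on the dim SHAM arrays, a difference of -0.06 (95% interval -0.42 to 0.29). Fgfr3 was at 10.86 and 10.89 against 10.98 and 11.04 (-0.14, interval -0.82 to 0.54), and Fgfr4 was at 11.63 and 11.67 against 11.60 and 11.67 (0.01, interval -0.58 to 0.61). Fgfr2 was at 7.25 and 7.57 against 8.45 and 7.69, a difference of -0.66 (interval -1.47 to 0.16, adjusted p = 0.60). Its 3 probe sets gave -0.66 to -0.02, and their mean gave -0.28. Its dim PNX arrays were at 8.18 and 7.09 and overlapped both groups. Whether a probe set of Fgfr2 reads the dominant-negative transgene is not known, so these signals are no check of its expression.

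Among 5 tested ligands of 9, 0 passed at an unadjusted p below 0.05 and the median difference was 0.11. Fgf1 was at 5.61 and 5.49 against 5.18 and 5.00 (0.46) and Fgf2 at 8.47 and 8.60 against 8.25 and 8.37 (0.22), with adjusted p-values of 0.74 and 0.72. The 14 tested feedback targets of FGF and ERK had a median of 0.15. At an unadjusted p below 0.05, 2 were higher and 0 lower, beside 5.06% and 4.46% over all genes tested. The 2 were Egr1, a zinc finger factor induced by ERK, at 11.34 and 11.08 against 9.94 and 10.93 (0.78, adjusted p = 0.45), and Fosl1, an AP-1 subunit, at 5.24 and 5.64 against 4.96 and 4.89 (0.51, adjusted p = 0.38). Neither passed the adjusted threshold. Between dim PNX-dnFGFR and dim PNX, whose labels differ in dnFGFR, limma called 0 of 11073 genes (0%). The smallest adjusted p was 0.052, and 863 genes had an unadjusted p below 0.05. In that contrast the feedback targets had a median of -0.16, with 0 higher and 1 lower.

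The clock genes Per3, Ciart and Arntl lay between the other dim groups on the dim PNX-dnFGFR arrays. These are 3 of 16 tested clock genes, and that order was not counted over the list or over all genes. In the comparison with dim SHAM, the 16 had a median of 0.25, and none passed the adjusted threshold. At an unadjusted p below 0.05, 4 were higher and 1 lower, beside 5.06% and 4.46% over all genes tested. Per3, a period gene, was at 7.80 and 7.69 on the dim PNX-dnFGFR arrays, 7.15 and 6.59 on the dim SHAM arrays and 8.69 and 8.54 on the dim PNX arrays, and the 3 groups did not overlap. Its difference was 0.87 from dim SHAM (± 0.21, adjusted p = 0.30) and -0.87 from dim PNX (adjusted p = 0.49), while dim PNX was higher than dim SHAM by 1.74 (adjusted p = 0.049). Its 5 probe sets gave 0.28 to 0.87. Ciart, a repressor of CLOCK and BMAL1 that was chosen after its values were seen, was at 5.78 and 5.57, 5.03 and 5.07, and 7.04 and 6.59 in the same order. It differed by 0.62 from dim SHAM (adjusted p = 0.42) and by -1.14 from dim PNX (adjusted p = 0.42), and dim PNX was higher than dim SHAM by 1.76 (adjusted p = 0.049).

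Arntl, which encodes BMAL1 and peaks in antiphase to the period genes, ran the other way. It was at 6.11 and 6.57 on the dim PNX-dnFGFR arrays, 6.86 and 7.23 on the dim SHAM arrays and 4.86 and 5.21 on the dim PNX arrays, again without overlap. The difference from dim SHAM was -0.71 (± 0.31, adjusted p = 0.52), against -2.01 for dim PNX (adjusted p = 0.083). Its other probe set gave -0.15 between dim PNX-dnFGFR and dim SHAM. Hlf, a D-box binding factor, was higher by 0.78 (adjusted p = 0.36), and its other probe set gave -0.09. Bhlhe40, a repressor named after its values were seen, was higher by 0.78 (adjusted p = 0.41). For Hlf and Bhlhe40 the dim PNX-dnFGFR arrays overlapped those of dim PNX. Hlf was at 7.06 and 7.46 against 7.76 and 7.41, and Bhlhe40 at 7.91 and 7.45 against 7.73 and 7.96. The hour of collection is not given in the sources used here. Of the clock genes with an upstream sequence, 5 of 16 held an E-box and 2 of 16 a D-box.

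Immediate early genes, which cells switch on within minutes of a stimulus, had a median of 0.36 over 23 tested. At an unadjusted p below 0.05, 6 were higher and 0 lower, beside 5.06% and 4.46% over all genes tested. None passed the adjusted threshold. Nr4a1, an orphan nuclear receptor, was at 7.32 and 6.78 on the dim PNX-dnFGFR arrays, 5.38 and 6.13 on the dim SHAM arrays and 8.16 and 7.69 on the dim PNX arrays, a difference of 1.29 from dim SHAM (± 0.37, adjusted p = 0.36). Egr2 was at 7.95 and 6.96 against 6.25 and 6.04, and Fosl2, an AP-1 subunit, at 7.93 and 7.64 against 6.74 and 7.24 (0.79, adjusted p = 0.36). Nr4a3, named after its values were seen, was at 7.49 and 7.34 against 5.61 and 6.60 (1.31). The dim PNX group stood higher than dim SHAM in these 4 genes by 2.17, 1.73, 0.98 and 1.77, and the dnFGFR group stood below dim PNX by differences of -0.88, -0.42, -0.19 and -0.46 that did not pass. Among 22 tested genes for heat shock and the unfolded protein response, 3 rose at an unadjusted p below 0.05 and 0 fell. None of the 22 passed the adjusted threshold. Dnaja1, a cochaperone, differed by 0.40 (adjusted p = 0.49 by limma), and its other probe set gave 0.20. Pdia4, a disulfide isomerase, differed by 0.34 (adjusted p = 0.45).

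**Figure D3:**
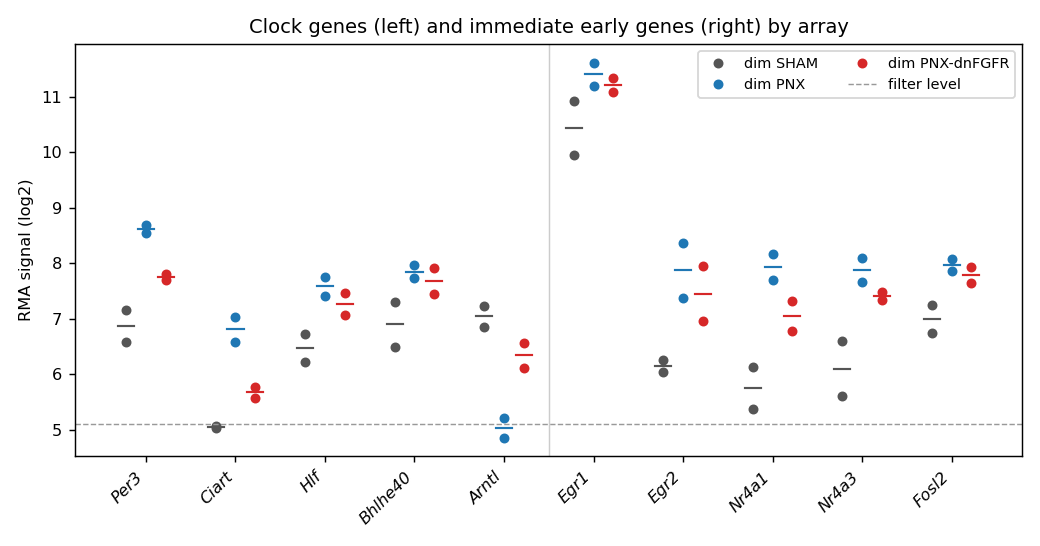
Log2 RMA signal of 5 clock genes and 5 immediate early genes on the 6 dim arrays, with short lines at the group means (n = 2) and a dashed line at the filter level. For Per3, Ciart and Arntl the dim PNX-dnFGFR arrays lie between those of dim SHAM and dim PNX, with no overlap. For Hlf and Bhlhe40 they overlap those of dim PNX.

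Of the inflammatory lists, the 14 tested acute phase genes had a median of 0.27. At an unadjusted p below 0.05, 4 were higher and 0 lower, beside 5.06% and 4.46% over all genes tested. The 4 were Serpina3n, Saa3, Timp1 and Steap4, a metalloreductase (0.97), and Serpina3n was the 1 that passed the adjusted threshold. For complement, 2 of 11 were higher and 0 lower with a median of 0.34: Cfb, factor B of the alternative pathway, was at 7.73 and 7.95 against 7.37 and 6.54 (0.88, adjusted p = 0.38), and C1ra, a protease of the C1 complex, differed by 0.46. Interferon response genes were higher in 2 of 16 and lower in 0, with a median of 0.36. Mx2, an antiviral GTPase, differed by 1.30 (0.41 with low values held at the filter level) and Irf9, a subunit of the factor ISGF3, by 0.49, from 8.68 and 8.32 against 7.97 and 8.05. Chemokines and cytokines were higher in 2 of 19 and lower in 0, with a median of 0.29. These were Ccl7, whose 4 signals were below the filter level, and Tslp, an epithelial and stromal cytokine, at 0.63.

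No matrix gene passed the adjusted threshold, which 2 of 11073 genes (0.0181%) passed in all. Of 25 tested collagens, 3 were higher and 0 lower at an unadjusted p below 0.05, beside 5.06% and 4.46% over all genes tested. Their median was 0.23. Without overlap of the arrays, 12 of the 25 were higher and 0 lower, beside 18.9% higher and 19.0% lower over all genes tested. Col5a2, a fibril-regulating chain, was at 10.93 and 10.47 on the dim PNX-dnFGFR arrays against 10.19 and 10.25 on the dim SHAM arrays (0.48, adjusted p = 0.42), and Col1a2 was at 6.85 and 6.47 against 5.74 and 6.22 (0.68, adjusted p = 0.46). The 1 probe set of Col1a2 gave signals far below those of Col1a1, the other chain of type I collagen, at 12.12 and 11.94 against 11.94 and 11.82. Col1a1 differed by 0.15 (interval -0.13 to 0.43) and Col3a1 by 0.12. Genes of collagen processing had 3 of 14 higher and 0 lower, with P3h1, a prolyl hydroxylase, at 0.56 and Ppib, a cyclophilin of the same complex, at 0.40. Elastic fibre genes had 2 of 19 higher and 1 lower: Mfap4, a microfibril protein, was at 12.10 and 12.06 against 11.59 and 11.38 (0.59, adjusted p = 0.35), Emilin2 differed by -0.62, and Eln, elastin itself, by 0.11 (interval -0.23 to 0.45).

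Among matricellular genes 2 of 19 were higher and 0 lower, beside 5.06% and 4.46% over all genes tested. They were Ccn4 at 1.28 and the proteoglycan Vcan at 0.95. In both the dim PNX-dnFGFR replicates were more than 1 log2 apart, and the 5 probe sets of Vcan gave -0.18 to 0.95. Proteoglycans had 0 of 8 higher and 1 lower, Ogn (-0.50), and metalloproteinases and their inhibitors had 3 of 16 higher and 1 lower. Adamts4, an aggrecanase, was at 5.29 and 6.35 against 4.18 and 3.49, a difference of 1.99 (adjusted p = 0.36), or 0.72 with low values held at the filter level. In the plasminogen system, which activates metalloproteinases, 1 of 8 was higher and 0 lower: Plat, tissue plasminogen activator, was at 7.80 and 7.37 against 6.56 and 6.55 (1.03 ± 0.20, adjusted p = 0.19). Its other probe set gave 0.43.

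The identity genes of lung fibroblasts showed no called difference, where 2 of 11073 genes (0.0181%) were called in all. Of 16 tested alveolar fibroblast genes 0 were higher or lower at an unadjusted p below 0.05. Over all genes tested, 5.06% were higher and 4.46% lower. The alveolar fibroblast genes had a median of -0.04 and a range of -0.18 to 0.53. Of 13 alveolar myofibroblast genes 1 was higher and 0 lower (median -0.07), Wnt5a, a noncanonical Wnt ligand, at 6.03 and 5.05 against 3.81 and 4.73 (1.27, 0.47 with low values held at the filter level). Contractile genes had 1 of 16 higher and 0 lower (median 0.08). Acta2, smooth muscle actin, was at 7.21 and 7.41 against 6.89 and 6.53, a difference of 0.60 (interval -0.41 to 1.61), and Myh11, smooth muscle myosin, differed by 0.63. Genes of lipofibroblasts and lipid storage had 0 of 15 higher and 1 lower (median 0.06). Plin2, which coats lipid droplets, was at 10.78 and 10.25 against 10.44 and 10.47, a difference of 0.06 (interval -0.41 to 0.54). Adventitial fibroblast genes had 2 of 17 higher and 0 lower (median -0.03), with Igfbp4, an IGF binding protein, at 8.96 and 9.38 against 8.28 and 8.50 (0.78, adjusted p = 0.30).

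Growth and metabolism gave differences in both directions at an unadjusted p below 0.05. Over all genes tested, the shares at that level were 5.06% higher and 4.46% lower. The IGF axis had 1 of 12 higher (Igfbp4) and 3 lower, with a median of -0.29. The 3 were Igfbp3, Igfbp6 and the protease Htra1 (-0.75). Mitosis genes had 0 of 21 higher and 2 lower, with a median of -0.35: Birc5, survivin, was at 4.37 and 4.31 against 5.40 and 5.14 (-0.93, adjusted p = 0.28) and Prc1, a midzone protein, differed by -0.88, both with the dim PNX-dnFGFR arrays below the filter level. With low values held at that level the differences were -0.17 and -0.24, and the other probe set of Prc1 gave -0.36. Mki67, a marker of cycling cells, was at 4.46 and 5.28 against 5.89 and 3.57 and showed no order. S phase genes had 0 of 21 higher or lower, with a median of -0.13. Cholesterol synthesis had 4 of 17 higher and 0 lower, with a median of 0.28. Dhcr7, which makes cholesterol from 7-dehydrocholesterol, was at 8.59 and 8.42 against 7.87 and 7.86 (0.64 ± 0.12, adjusted p = 0.19), and Idi1, an isomerase of the isoprenoid path, at 5.63 and 5.94 against 5.25 and 5.17 (0.57). Of 18 glycolysis and hypoxia genes, 0 were higher and 3 lower, with a median of -0.21: Pfkp, phosphofructokinase of platelets, differed by -0.75, Bnip3, a mitophagy receptor, by -0.56 and Adm, adrenomedullin, by -0.41. The other probe set of Pfkp gave -0.15. Fatty acid synthesis had 0 of 11 higher and 2 lower, and oxidative phosphorylation 0 of 30 in either direction with a median of 0.06.

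Signalling lists had few members at an unadjusted p below 0.05, where the shares over all genes tested were 5.06% higher and 4.46% lower. Of TGF-beta and BMP genes 1 of 22 was higher and 0 lower, Id3, a target of BMP, at 9.24 and 8.96 against 8.18 and 8.50 (0.76, adjusted p = 0.29). Wnt genes had 2 of 16 higher and 0 lower, with Sfrp1, a secreted inhibitor, at 8.09 and 6.32 against 6.03 and 5.61 (1.38, or 0.50 to 2.27 with single arrays left out). Hedgehog genes had 1 of 12 higher, the transcription factor Gli2 at 0.60. The PDGF pathway had 0 of 4 and Notch 0 of 8 in either direction. Axon guidance had 2 of 22 higher and 0 lower, the slit receptors Robo2 (0.83) and Robo1 (0.62). Retinoid genes had 0 of 15 higher and 2 lower, Rarg, a retinoic acid receptor (-0.59), and Cyp26b1, which breaks retinoic acid down (-0.55). Glucocorticoid response genes had 1 of 19 higher, Mt1, and 1 lower, Zbtb16 (-1.41, at 7.80 and 8.90 against 9.93 and 9.59). Imprinted genes had 0 of 11 higher and 1 lower, Peg3 (-0.91), and ion channels 1 of 12 higher. Lung mesenchyme transcription factors had 1 of 22 higher, Srf (0.54), and 1 lower, Mef2c (-0.55). The other probe set of Srf gave 0.04, and the 3 of Mef2c gave -0.55 to 0.10. Nitric oxide and cGMP genes had 0 of 8 in either direction.

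**Figure D4:**
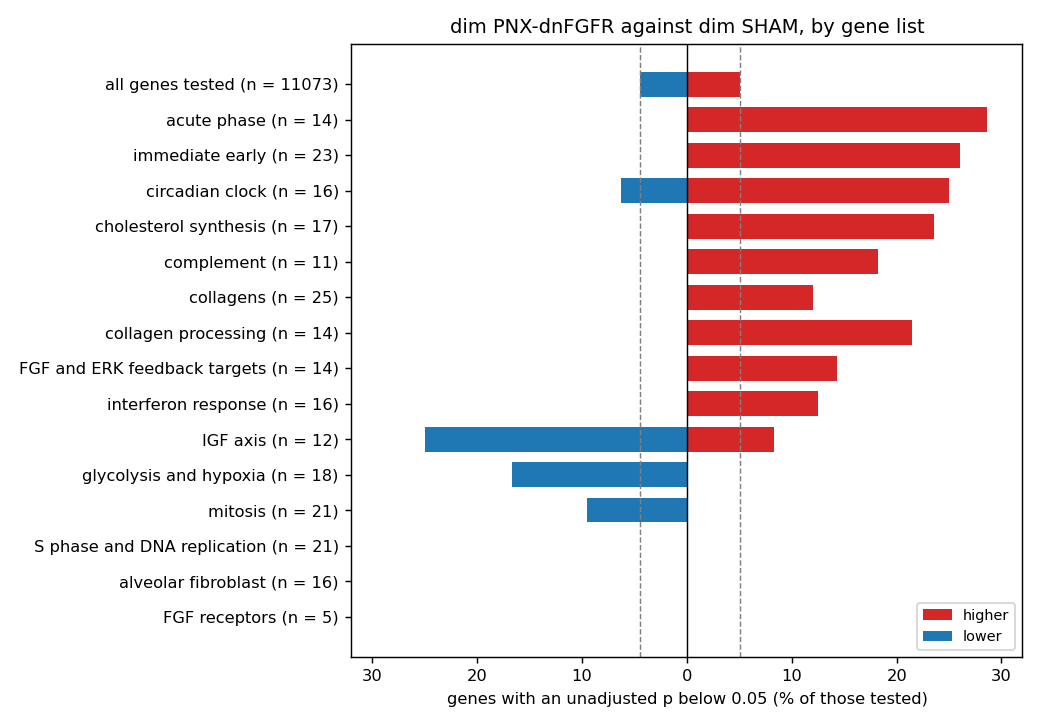
Share of the tested genes of 15 lists, and of all genes tested, with an unadjusted p below 0.05 in dim PNX-dnFGFR against dim SHAM, higher to the right and lower to the left, with dashed lines at the shares over all genes (5.06% and 4.46%). The lists hold 5 to 25 genes, and their members were chosen with earlier results known.

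The labels of the dim PNX and dim SHAM arrays differ in the operation. Between dim PNX and dim SHAM limma called 5 of 11073 genes (0.0452%), 3 higher and 2 lower, and 1346 had an unadjusted p below 0.05. That comparison shares the dim SHAM arrays with the main one, and the comparison of dim PNX-dnFGFR with dim PNX shares the dnFGFR arrays, so only values are set side by side. Of the named lists, the clock had a median of 0.66 in dim PNX against dim SHAM, 0.25 in dim PNX-dnFGFR against dim SHAM and -0.30 in dim PNX-dnFGFR against dim PNX. Collagens had medians of 0.09, 0.23 and 0.06, cholesterol synthesis 0.52, 0.28 and -0.06, and interferon response 0.02, 0.36 and 0.33 in the same order.

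The same contrast in the bright gate, on other arrays, gave many more calls. limma called 576 of 11073 genes (5.20%) between bright PNX-dnFGFR and bright SHAM, 288 higher and 288 lower. The S phase list had a median of 1.34 and the mitosis list one of 1.46 there, against -0.13 and -0.35 in dim cells, and 12 of 21 and 10 of 21 of their genes rose in bright cells. On all 4 dim arrays compared, 9 of 27 measured S phase genes and 11 of 27 measured mitosis genes were below the filter level. Fgfr1 (-0.82), Fgfr3 (-1.26) and Fgfr4 (-1.90) fell in bright cells, with adjusted p-values of 0.026, 0.047 and 0.011, but the difference from the dim values did not pass (adjusted p = 0.22, 0.31 and 0.093). Of the alveolar fibroblast genes 8 of 16 fell in bright cells and 0 of 16 in dim cells. Tested as a difference between the gates, 0 alveolar fibroblast, 0 S phase and 1 mitosis gene (Birc5) passed.

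Tested directly as an interaction, the effect differed between the gates in 14 of 11073 genes (0.126%). In 3 it was higher in dim cells. Serpina3n rose by 3.43 in dim and by 1.03 in bright cells (difference 2.40 ± 0.29, adjusted p = 0.0426), and its bright SHAM arrays already stood at 10.36 and 10.32, so the 4 pneumonectomy arrays of both gates with dnFGFR ended between 11.17 and 11.61. Tshz3, a zinc finger factor, differed by 0.81 in dim and -0.74 in bright cells, and Entpd2, which splits extracellular ATP, by 0.73 and -1.33, although its dim signals were below the filter level. In 11 genes the effect was lower in dim cells. Tnfrsf11b, the decoy receptor osteoprotegerin, rose by 3.47 in bright cells and was at 3.93 and 3.67 against 4.15 and 4.28 in dim cells, all below the filter level. Cthrc1, a secreted protein of activated fibroblasts, rose by 2.77 in bright cells, to 7.58 and 7.02, and was at 3.09 and 2.76 against 2.65 and 2.55 in dim cells. Birc5 differed by 1.93 in bright and by -0.93 in dim cells, and Sema4a, a semaphorin, by 1.96 and -0.82. The dim difference of Birc5 was -0.17 with low values held at the filter level. With single arrays left out the count of 14 ran from 0 to 95, and that of 576 in bright cells from 5 to 910.

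**Figure D5:**
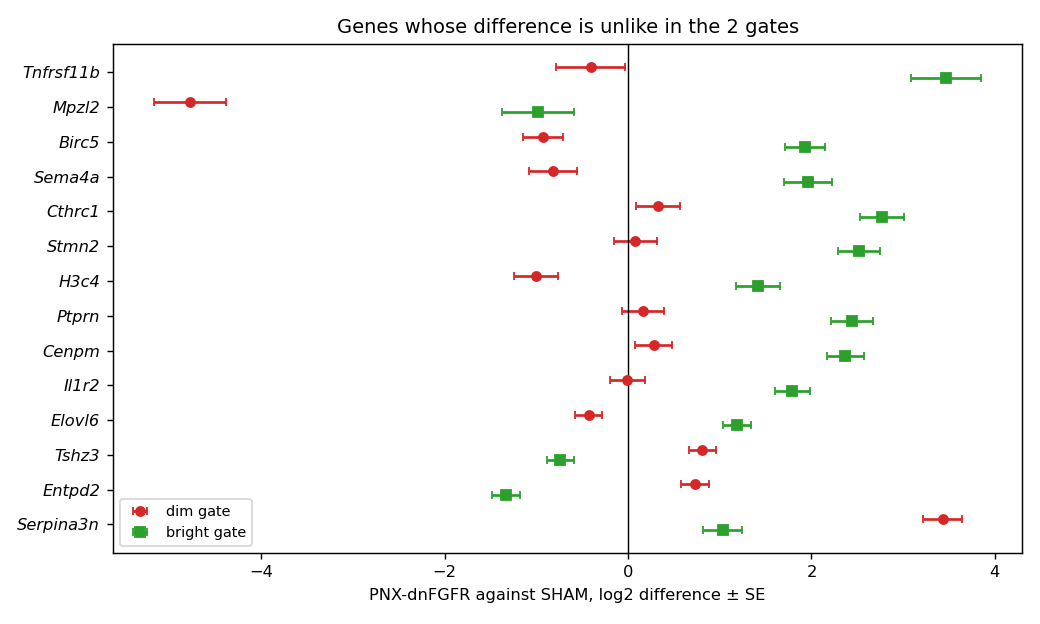
Log2 difference of PNX-dnFGFR from SHAM, with its standard error (n = 2 arrays per group), in the dim gate (circles) and the bright gate (squares) for the 14 genes called in the test of the difference between the gates. For Serpina3n and Mpzl2 the larger difference is in the dim gate, at 3.43 and -4.78, and for Tnfrsf11b and Cthrc1 in the bright gate, at 3.47 and 2.77. The bright signals of Mpzl2 and the dim signals of Tnfrsf11b and Cthrc1 were all below the filter level.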

How the data were processed

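The authors deposited 1 log2 signal per probe set and array, made with RMA per the submitters' processing notes (version and options not given in the sources used here), and these log2 values were used as deposited. RMA equalises the distributions of the arrays, so a shift common to most genes would not be seen. Of 45141 probe sets, 104 were controls, 28898 had 1 gene, 551 several and 15588 none. Each gene was read by its brightest probe set, by the mean of all 12 arrays, and 11073 genes had a signal above log2 5.101 on at least 2 arrays.

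limma 3.58.1 in R 4.3.3 fitted 1 mean per group to all 12 arrays (6 residual and 3.31 prior degrees of freedom, median residual SD 0.199). Its moderated test was adjusted by Benjamini and Hochberg's method, with a threshold of 0.05, and the fit was tested on simulated data. The number of arrays limits the precision. Replicate numbers did not pair the samples (the r of same-numbered deviations was -0.09 between dim PNX-dnFGFR and dim SHAM, 0.17 between dim PNX and dim SHAM and 0 between the dim pneumonectomy groups, and over all pairs of groups it ran from -0.19 to 0.35, the highest between bright PNX-dnFGFR and bright SHAM).

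The groups, 51 gene lists and alternatives were chosen with earlier results of these data known. Named genes are those past the threshold without overlap, filled up to 8 per direction by the largest at an unadjusted p below 0.01 with all 4 arrays above the filter level, up to 5 per direction for the difference between the gates, up to 4 members per list past the threshold or 2 below it, the 2 highest markers of each other cell type, and Pdgfra, Fgfr1 to Fgfr4, Acta2, Plin2, Col1a1, Eln, Mki67, Serpina3n, Cthrc1, Per3 and Arntl. Genes outside the rule are Saa3, Pianp, Ch25h, Galnt15, Hbb-b2, Csf3r, Ciart, Bhlhe40, Nr4a3, Steap4, Htra1, Adm, Mpo and, in the closing section, Stmn2, H3c4, Ptprn, Cenpm, Il1r2, Slco2b1 and Prg4. Promoters came from RefSeq (GRCm38.p6). The alternatives were other filters, a floor at the filter level, another quantile normalization, a gene's mean probe set value, a trend in the variance, only the groups compared, replicate and gate blocks, each array left out and, added after seeing the data, every probe set on its own.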

Additional observations from a re-analysis of the deposited data

Results flagged for a closer look

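In 14 genes the difference between PNX-dnFGFR and SHAM was unlike in the dim and bright gates by limma's test of the difference itself (n = 2 arrays per group), given here as the dim minus the bright effect. It was -3.89 for Tnfrsf11b, -3.81 for Mpzl2, -2.86 for Birc5, -2.79 for Sema4a and -2.45 for Cthrc1. It was also lower in dim cells for Stmn2, a tubulin-binding stathmin (-2.44), H3c4, a replication-dependent histone (-2.42), Ptprn, a protein of secretory granules (-2.28), Cenpm, a centromere protein (-2.09), Il1r2, the decoy receptor of interleukin 1 (-1.80), and Elovl6, a fatty acid elongase (-1.63). It was higher in dim cells for Tshz3 (1.55), Entpd2 (2.06) and Serpina3n (2.40). The adjusted p-values lay between 0.0313 and 0.0498. In Stmn2, Ptprn, Cenpm and Il1r2 the dim effect was small, at 0.08, 0.16, 0.28 and -0.01, and the bright effect was 2.52, 2.44, 2.37 and 1.79. The dim signals of Ptprn and Il1r2 were all below the filter level, and those of Stmn2 and Cenpm lay on both sides of it. A small dim effect in these genes is therefore hard to tell from background. H3c4 was at 6.03 and 6.26 on the dim PNX-dnFGFR arrays against 7.50 and 6.79 on the dim SHAM arrays, and at 8.27 and 8.46 against 7.13 and 6.76 in the bright gate.

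Probe sets without a gene name stood outside the gene results. Tested with all 25839 probe sets on their own, 2 of them passed between dim PNX-dnFGFR and dim SHAM: 1443801_PM_at was higher by 3.35 (± 0.31, adjusted p = 0.0053) and 1442531_PM_at was lower, at -1.92 (± 0.22, adjusted p = 0.026). Of the 7 probe sets called there, 3 belong to Mpzl2, 1 to Serpina3n and 1 to Slco2b1, an organic anion transporter (-1.52, adjusted p = 0.044).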

How the results depend on the processing

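In the comparison of dim PNX-dnFGFR with dim SHAM, limma's count of 2 genes became 1 with the stricter filter, 1 with low values set to the filter level, and 7 with every probe set on its own, an alternative added after seeing the data. It ran from 2 to 8 with single arrays left out: 5 without dim PNX-dnFGFR replicate 2, where Igfbp6, Mpo (4.24) and Prg4 (3.35) passed too, and 8 without dim SHAM replicate 2. Serpina3n passed each time, at 3.24 to 3.62 without single arrays. The replicate block gave 3 genes in the main comparison, the third being Saa3 (adjusted p = 0.029), and the numbers did not pair the samples. For dim PNX against dim SHAM the count of 5 became 2 without a filter, 14 with the floor, 13 with a variance trend and 0 with only the groups compared, and 1 to 13 without single arrays. For dim PNX-dnFGFR against dim PNX the count of 0 became 1 with the stricter filter, the filter on the arrays compared, the floor or a variance trend, and 0 to 1 without single arrays. For bright PNX-dnFGFR against bright SHAM it ran from 5 to 910 without single arrays, and for the difference between the gates the count of 14 became 8 without a filter, 22 with the stricter one, 35 with the floor, 32 with a trend and 41 with only the groups compared, and 0 to 95 without single arrays. The causes were not tested. Differences that had not passed changed sign: with the mean of probe sets Tyms went from 0.65 to -0.01 (its 5 probe sets ran from -0.58 to 0.65), Car4 from -0.05 to 0.10 and Ngfr from -0.18 to 0.09, and Mki67 was -0.31 with the floor. Without single arrays the ranges were -0.74 to 0.39 for Ager, -0.83 to 0.73 for Car4, -0.05 to 0.26 for Eln, -0.17 to 0.04 for Fgfr1, -0.02 to 0.05 for Fgfr4, -0.29 to 0.24 for Lyz2, -1.02 to 1.30 for Mki67, -0.73 to 0.10 for Nkain4, -0.44 to 0.35 for Notch3, -0.17 to 0.03 for Pdgfra and -0.21 to 0.33 for Plin2.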
